A study of Mus musculus with 12 samples.

Results

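The transcripts of the epidermal growth factor (EGF) receptor system were examined in the colon of 12 mice with dextran sulfate sodium (DSS) colitis. The genes were 10, taken by symbol from a table of 21899 genes: the ligands Areg, Ereg, Hbegf, Tgfa, Btc and Epgn, the receptors Egfr, Erbb2 and Erbb3, and Errfi1, an intracellular inhibitor of the receptor. All 10 passed the filter on low counts, as did 14393 genes in all. The CKO group was 6 mice in which Pck1, the cytosolic phosphoenolpyruvate carboxykinase of gluconeogenesis, had been deleted in intestinal epithelial cells. The WT group was 6 littermate controls. All 12 mice had received 2.5% DSS, which injures the colon lining, for 7 days, and mice without DSS were not analysed here. The sources used here do not name the Cre driver of the deletion, the strain or the age of the mice. Total RNA came from colon tissue, so each library mixes epithelium, immune cells, stroma and muscle.

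EGF receptor ligands are made as membrane-anchored precursors, and metalloproteases release the part that binds the receptor. Binding brings receptors together in pairs, which phosphorylate each other and activate the Ras-ERK and PI3K-AKT routes. Erbb2 has no known ligand of its own and serves as a partner, whereas Erbb3 binds neuregulins and signals mainly through its partner. In the gut the system is known for driving crypt cell proliferation and for restitution of the epithelium after injury. Errfi1, also called Mig6, binds the active kinase and dampens it, and is itself induced by receptor signalling.

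Library totals were 15348192 to 18211663 counts in CKO and 15881625 to 19138507 counts in WT. Pck1 stood at 2.28 to 7.32 library-scaled counts (CPM) in CKO and at 34.5 to 84.7 CPM in WT, and fell by 3.66 on the log2 scale (SE 0.32, edgeR adjusted p = 0.000391). Colon epithelial markers summed to at least 10710 CPM in every library. Exocrine pancreas transcripts were also present, at a summed 2.65 to 1583 CPM in CKO and 1.91 to 24004 CPM in WT, highest in WT-6. Without WT-6, edgeR called 0 of the 10 genes, as it did with all libraries. The calls over all tested genes were then 373, against 8 with all libraries. Ereg, Egfr and Epgn then had edgeR adjusted p of 0.0506, 0.0549 and 0.0555, just above the threshold of 0.05.

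Epiregulin and epigen transcripts were the most unequal between the genotypes, with CKO means 3.48 and 2.82 times the WT means in CPM. Egfr, the receptor itself, was 1.28 times as high, and Errfi1 1.56 times. The ligands Areg, Tgfa, Hbegf and Btc and the receptors Erbb2 and Erbb3 differed by less than the spread between mice. None of the 10 passed edgeR's quasi-likelihood test after Benjamini-Hochberg adjustment over all tested genes, a threshold that 8 of all tested genes passed (0.0556%). At an unadjusted edgeR p under 0.05, 4 of the 10 were higher in CKO (Epgn, Egfr, Ereg and Errfi1), where 13.1% of all tested genes were, and 0 were lower, where 9.48% were. DESeq2 called 3 of the 10 higher in CKO (Ereg, Epgn and Egfr) and 0 lower, with 7.98% and 3.1% of all genes called in these directions. The edgeR log2 fold change was above 0 for 8 of the 10 genes, against 45.1% of all tested genes, with a median of 0.22 against -0.03 over all tested genes.

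**Figure D1:**
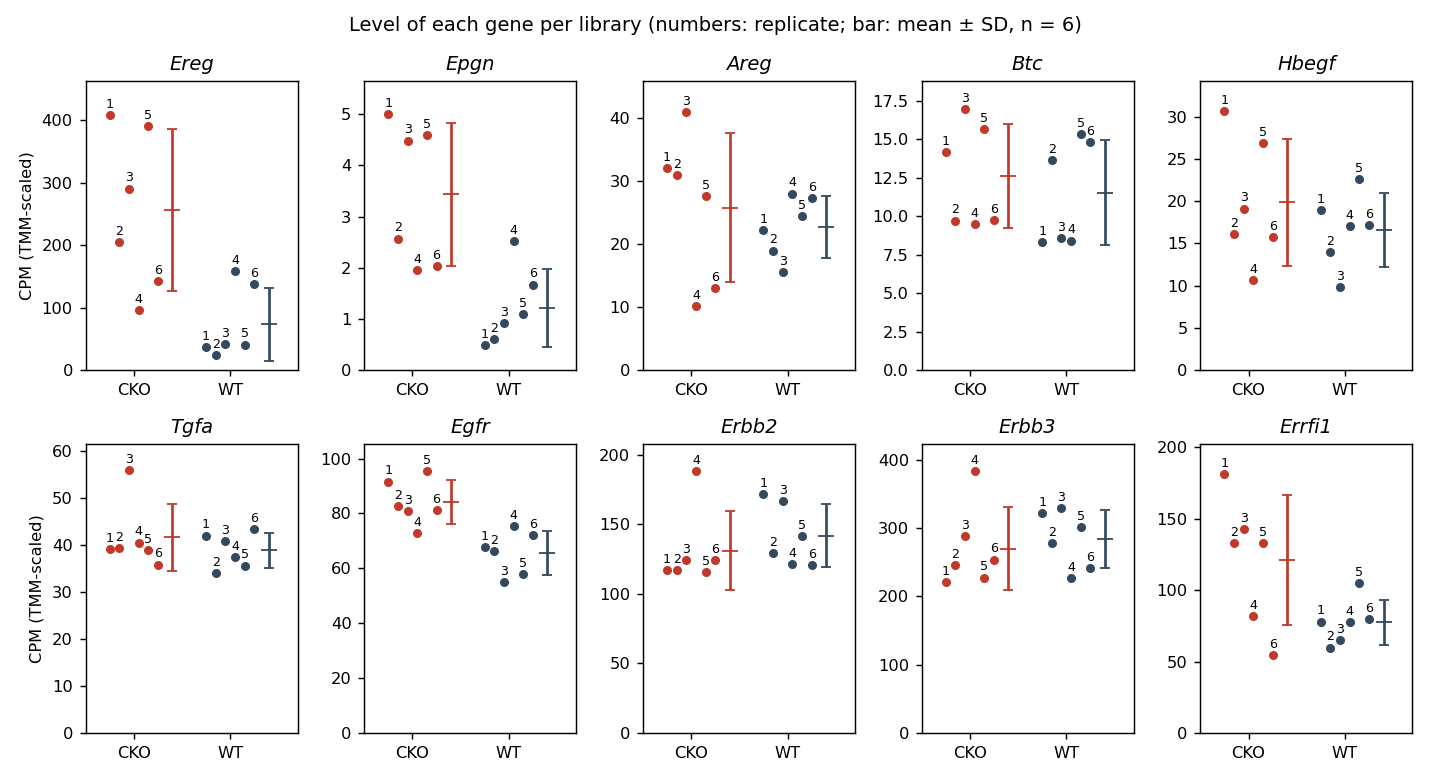
Level of each of the 10 genes in every library, as CPM scaled by TMM on linear axes that start at 0, with CKO left of WT. Points are mice, numbered by replicate, and the bars beside them give the mean ± SD (n = 6). Ereg and Epgn reached 408.4 and 5.0 CPM in CKO-1, while the CKO and WT ranges of Tgfa, Btc, Erbb2 and Erbb3 overlapped widely.

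Ereg encodes epiregulin, a ligand of both EGFR and ERBB4. It had 96.3 CPM in the lowest CKO library, a median of 247.8 and 408.4 CPM in the highest, against 24.3, 41.4 and 158.7 CPM in WT. All 6 CKO libraries lay above the WT median and 4 lay above every WT library. The overlap came from CKO-4 (96.3 CPM) and CKO-6 (142.6 CPM) on one side and from WT-4 (158.7 CPM) and WT-6 (138.2 CPM) on the other. The other 4 WT libraries stood between 24.3 and 41.6 CPM. The mean was 255.6 ± 129.3 CPM in CKO and 73.5 ± 58.8 CPM in WT (SD, n = 6 each). The log2 fold change was 1.80 ± 0.51 (SE), with a 95% interval of 0.81 to 2.79. The edgeR adjusted p was 0.0694 and the DESeq2 adjusted p was 0.0199. An exact two-sided permutation test of the CPM gave p = 0.0108.

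Epgn encodes epigen, a ligand of low receptor affinity, and had the lowest TPM of the 10 genes in both genotypes. Its level was 1.96 CPM in the lowest CKO library, a median of 3.53 and 5.0 CPM in the highest, against 0.49, 1.01 and 2.52 CPM in WT. CKO-1, CKO-3, CKO-5 and CKO-2 lay above every WT library, and WT-4 was the only WT library above any CKO library. The mean was 3.44 ± 1.40 CPM in CKO and 1.22 ± 0.76 CPM in WT (SD, n = 6 each). Its log2 fold change was 1.49 ± 0.40 (SE; 95% interval 0.71 to 2.27), with an edgeR adjusted p of 0.0634, a DESeq2 adjusted p of 0.00668 and an exact permutation p of 0.00866. With 462 counts over all 12 libraries, its levels carry more counting error than those of the other ligands.

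Areg encodes amphiregulin, a heparin-binding ligand made by epithelium and by innate lymphoid cells, among others. It spread more widely in CKO, with 10.2 CPM in the lowest library, a median of 29.3 and 41.0 CPM in the highest, than in WT, with 15.5, 23.3 and 28.0 CPM. CKO-4 and CKO-6 held less Areg than any WT library, and CKO-1, CKO-2 and CKO-3 held more. The log2 fold change was 0.18 ± 0.29 (SE; 95% interval -0.39 to 0.76), and the edgeR adjusted p was 0.765. Hbegf encodes heparin-binding EGF-like growth factor, an early-response ligand. Its mean was 19.9 ± 7.51 CPM in CKO and 16.6 ± 4.38 CPM in WT (SD, n = 6 each), with a log2 fold change of 0.26 ± 0.25 (SE; 95% interval -0.23 to 0.75).

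Tgfa encodes transforming growth factor alpha, a ligand made along the gut epithelium. It averaged 41.6 ± 7.18 CPM in CKO and 38.9 ± 3.73 CPM in WT (SD, n = 6 each). CKO-3, at 55.9 CPM, lay apart from the other CKO libraries, and without it the log2 fold change of 0.10 ± 0.11 (SE) became -0.0045. Btc encodes betacellulin, which binds EGFR and ERBB4. It averaged 12.6 ± 3.38 CPM in CKO and 11.5 ± 3.42 CPM in WT (SD, n = 6 each). In both genotypes 3 Btc libraries were low and 3 were high, and the log2 fold change was 0.13 ± 0.22 (SE; 95% interval -0.30 to 0.56). For these 4 ligands the intervals leave room for differences in either direction.

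Egfr encodes the receptor that all 6 ligands bind, and combined a small difference with a small spread. Its level was 73.0 CPM in the lowest CKO library, a median of 81.9 and 95.6 CPM in the highest, against 54.9, 67.0 and 75.5 CPM in WT. In 5 of 6 CKO libraries Egfr lay above every WT library. The exception was CKO-4, which lay below WT-4. The mean was 84.1 ± 8.16 CPM in CKO and 65.7 ± 8.01 CPM in WT (SD, n = 6 each), a log2 fold change of 0.36 ± 0.10 (SE; 95% interval 0.17 to 0.54). The edgeR adjusted p was 0.0636, the DESeq2 adjusted p 0.0103 and the exact permutation p 0.00433, where the smallest p that the design allows is 0.00216.

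Erbb2 and Erbb3, its partner receptors, had fold changes near 0. Erbb2 averaged 131.1 ± 28.3 CPM in CKO and 141.8 ± 22.7 CPM in WT (SD, n = 6 each), a log2 fold change of -0.11 ± 0.14 (SE; 95% interval -0.39 to 0.16). Erbb3 averaged 269.9 ± 60.5 CPM in CKO and 283 ± 42.4 CPM in WT, a log2 fold change of -0.07 ± 0.15 (SE; 95% interval -0.35 to 0.21). For both receptors CKO-4 was the highest CKO library, at 188 CPM of Erbb2 and 383.5 CPM of Erbb3, and every other CKO library lay below the WT median. CKO-4 was also the lowest CKO library for Ereg, Epgn, Egfr, Areg and Hbegf.

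Errfi1 was 54.4 CPM in the lowest CKO library, a median of 132.9 and 181 CPM in the highest, against 59.7, 77.9 and 105 CPM in WT. In CKO-1, CKO-2, CKO-3 and CKO-5 it lay above every WT library, while CKO-6 lay below every WT library. The log2 fold change was 0.64 ± 0.24 (SE; 95% interval 0.17 to 1.12). Its edgeR adjusted p was 0.137, its DESeq2 adjusted p 0.0676 and its exact permutation p 0.0476.

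The edgeR calls turned on single mice. Without CKO-4, and likewise without WT-4, edgeR called 1272 and 1007 genes in all and among them Ereg, Epgn and Egfr, higher in CKO, with adjusted p of 0.0341, 0.033 and 0.03 without CKO-4 and of 0.0274, 0.0208 and 0.0324 without WT-4. In the authors' deposited table, whose test the labels do not name, the adjusted p was 0.00774 for Epgn, 0.0136 for Egfr, 0.0252 for Ereg and 0.0853 for Errfi1.

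Each library was also compared within itself, by the log2 ratio of Ereg to Areg CPM. The ratio was 3.28 ± 0.44 in CKO and 1.35 ± 0.90 in WT (SD, n = 6 each). It ran from 2.73 to 3.82 in CKO and from 0.35 to 2.50 in WT, so that the groups did not overlap. CKO-4 and CKO-6, whose Ereg level overlapped that of WT libraries, had the lowest Areg of all 12 libraries. The difference of 1.93 had an exact two-sided permutation p of 0.00216, the smallest that 6 against 6 can give, and it ranged from 1.74 to 2.18 on the TPM scale, without each library in turn and without both libraries numbered 4. In all, 6 ratios were computed, chosen after the levels were seen, and their p-values are unadjusted. The difference was 1.45 for Epgn over Areg (exact p = 0.00433) and 1.77 for Ereg over Hbegf (exact p = 0.00649). It was 0.49 for Ereg over Epgn (exact p = 0.0671), 0.48 for Egfr over Erbb2 (exact p = 0.0519) and 0.44 for Egfr over Erbb3 (exact p = 0.0909).

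**Figure D2:**
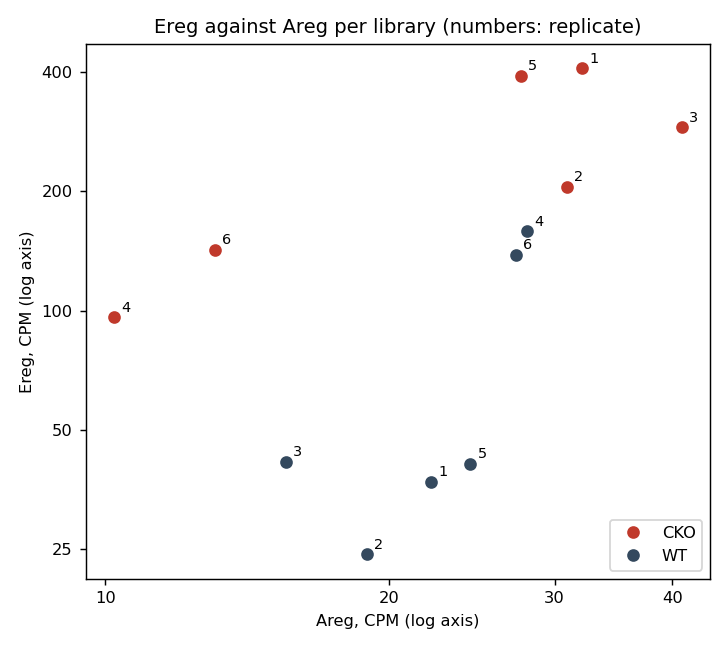
Ereg against Areg in each of the 12 libraries, in CPM on 2 log axes, with CKO and WT points numbered by replicate. The CKO points lie above or to the left of the WT points, and the log2 ratio of Ereg to Areg was at least 2.73 in CKO and at most 2.50 in WT.

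Levels of different genes were compared in deposited TPM, which the authors scaled by gene length and depth. In CKO the order of mean levels was Ereg (116.5 TPM), Erbb3 (84.3), Errfi1 (74.5), Erbb2 (49.3), Areg (39.6), Egfr (20.6), Tgfa (17.2), Hbegf (15.8), Btc (8.32) and Epgn (3.88). In WT it was Erbb3 (85.1 TPM), Erbb2 (51.2), Errfi1 (46.0), Areg (33.9), Ereg (32.4), Egfr (16.1), Tgfa (15.7), Hbegf (12.6), Btc (7.30) and Epgn (1.35). Ereg thus had the highest mean of the 10 genes in CKO and the fifth in WT. Neighbours in these orders overlapped between libraries, except Btc above Epgn in both genotypes and Erbb3 above Erbb2 in WT.

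The 6 ligands summed to 91.6 to 289 TPM in CKO (median 206) and to 72.6 to 153 TPM in WT (median 90.0). Ereg made up 47.0% to 65.1% of this sum in CKO (median 53.1%) and 14.6% to 47.2% in WT (median 22.0%). Areg made up 15.6% to 26.6% in CKO and 28.3% to 38.7% in WT, with no overlap. Its own mean was 39.6 TPM in CKO and 33.9 TPM in WT, so the lower share in CKO was not a lower mean level. The 3 receptors summed to 133 to 206 TPM in CKO (median 145) and to 132 to 181 TPM in WT (median 146). Egfr made up 9.20% to 16.2% of the receptor sum in CKO and 8.14% to 13.8% in WT.

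**Figure D3:**
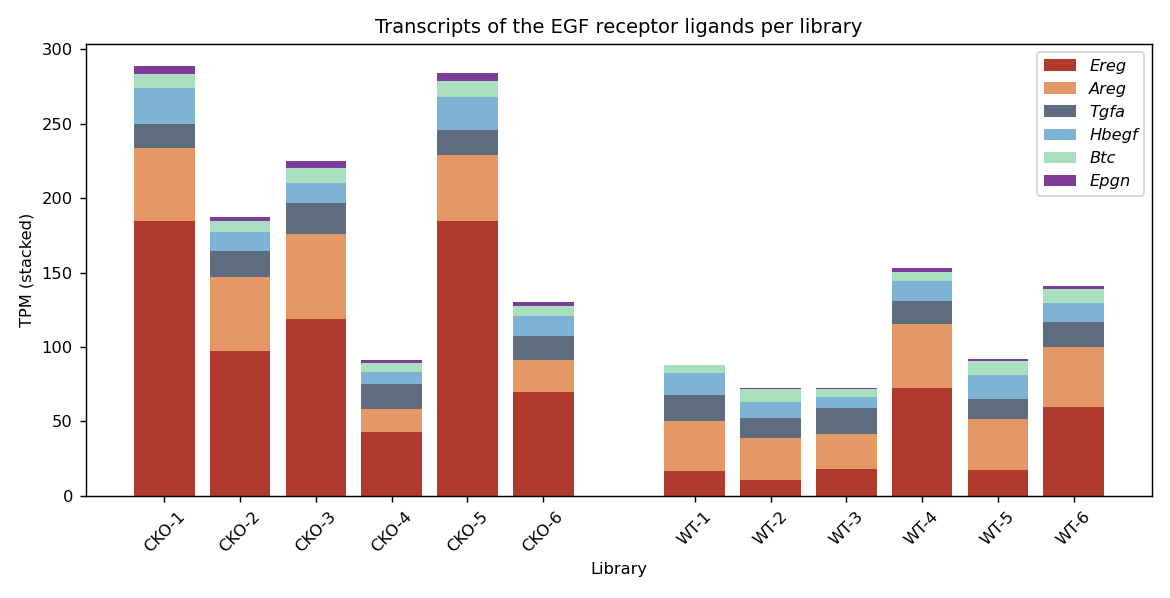
Deposited TPM of the 6 ligands stacked for each library, with the 6 CKO libraries left of the 6 WT libraries. Ereg is the lowest segment of each bar, and it held 47.0% to 65.1% of the ligand TPM in CKO and 14.6% to 47.2% in WT.

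Epgn, Ereg, Areg and Btc lie next to each other on chromosome 5 in the RefSeq annotation of GRCm38.p6. Before them lies a run of CXC chemokine genes, among them Cxcl1, Cxcl2, Cxcl3 and Cxcl5, which attract neutrophils. The values of these neighbours, chosen after they were seen, were not alike along the run. Cxcl3, Cxcl2, Cxcl1 and Cxcl5 had log2 fold changes of 3.52 ± 0.70, 2.91 ± 0.67, 2.56 ± 0.68 and 1.81 ± 0.62 (SE). Mthfd2l, a mitochondrial folate enzyme that lies between the chemokines and Epgn, had 0.02 ± 0.17 (SE). Epgn and Ereg, next in order, had 1.49 and 1.80, and Areg, Btc and then Parm1, a mucin-like membrane protein, had 0.18, 0.13 and 0.01. Cxcl3, Cxcl2 and Cxcl1 had edgeR adjusted p of 0.0522, 0.0541 and 0.0636, and Cxcl5 of 0.109, so that they too missed the threshold of 0.05. Pf4, another CXC chemokine gene of the run, had 0.997 ± 0.33 (SE) and an edgeR adjusted p of 0.101.

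**Figure D4:**
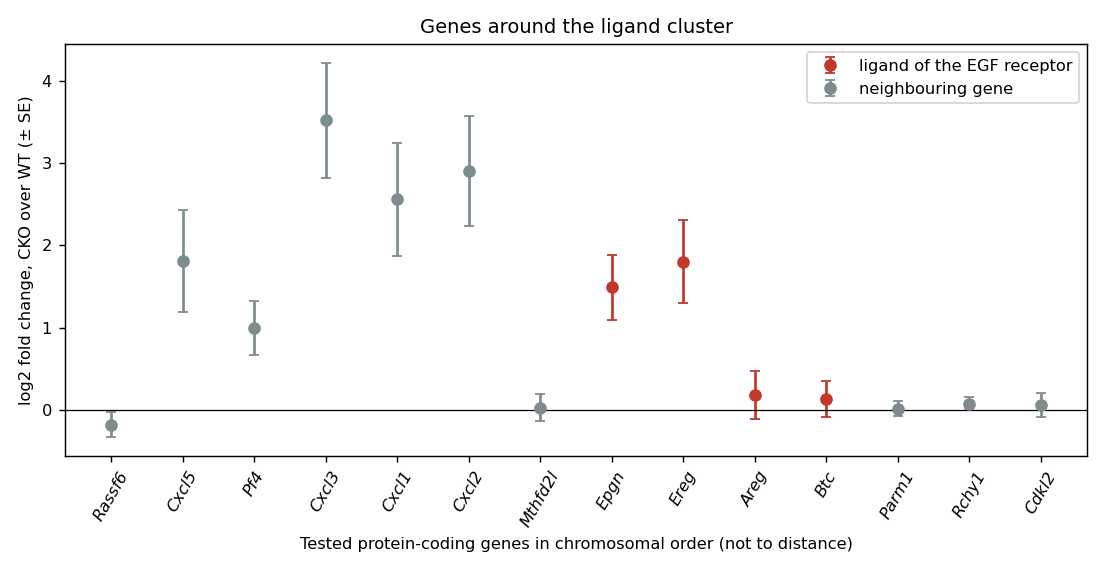
Log2 fold change, CKO over WT, of the tested protein-coding genes around the ligand cluster in their order along chromosome 5, with SE bars. The ligands Epgn and Ereg stood at 1.49 and 1.80, while Mthfd2l before them and Areg and Btc after them stood between 0.02 and 0.18.

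Promoter windows of 250 bases before to 50 bases after a start site were available from RefSeq (GRCm38.p6) for 7 of the 10 genes, in 8 windows. They were searched on both strands for the AP-1 motif TGANTCA, the cAMP response element (CRE) TGACGTCA, the SP1 box GGGCGG, and the serum response element and the NF-kB motif. Ereg, Hbegf and Erbb3 had no window and were not searched. Among the genes searched, Areg and Errfi1 had a full CRE, which 1.79% of all 32851 promoter windows hold. It begins 61 bases before the start of Areg and 51 bases before a start of Errfi1. The SP1 box, found in 35.7% of windows, is in those of Areg, Errfi1, Tgfa and Egfr. The NF-kB motif was matched in the Tgfa window, beginning 22 bases after the start, at 1 place that reads as a match on both strands. The Epgn, Btc and Erbb2 windows and the other Errfi1 window held no match to any of these motifs, of which AP-1 is in 7.81%, NF-kB in 8.46% and the serum response element in 1.63% of all windows. The Areg (chr5:91139349-91139648), Errfi1 (chr4:150854820-150855119) and Epgn (chr5:91027267-91027566) windows, all on the plus strand, are printed because Areg and Epgn are near neighbours with unlike ratios and Errfi1 shares the CRE with Areg. Capitals mark matches to a motif on either strand.
Areg: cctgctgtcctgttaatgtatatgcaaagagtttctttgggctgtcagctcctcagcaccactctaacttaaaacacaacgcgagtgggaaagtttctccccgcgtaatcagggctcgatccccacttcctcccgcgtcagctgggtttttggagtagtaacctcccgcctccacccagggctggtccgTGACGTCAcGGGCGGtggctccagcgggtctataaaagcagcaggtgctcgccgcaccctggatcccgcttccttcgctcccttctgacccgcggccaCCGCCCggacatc
Errfi1: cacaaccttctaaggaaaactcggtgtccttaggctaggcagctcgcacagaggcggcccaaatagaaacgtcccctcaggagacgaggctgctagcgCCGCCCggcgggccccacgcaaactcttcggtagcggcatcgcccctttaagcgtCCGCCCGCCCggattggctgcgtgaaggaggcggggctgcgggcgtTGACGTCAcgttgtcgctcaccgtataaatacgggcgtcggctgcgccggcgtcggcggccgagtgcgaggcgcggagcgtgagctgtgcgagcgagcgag
Epgn: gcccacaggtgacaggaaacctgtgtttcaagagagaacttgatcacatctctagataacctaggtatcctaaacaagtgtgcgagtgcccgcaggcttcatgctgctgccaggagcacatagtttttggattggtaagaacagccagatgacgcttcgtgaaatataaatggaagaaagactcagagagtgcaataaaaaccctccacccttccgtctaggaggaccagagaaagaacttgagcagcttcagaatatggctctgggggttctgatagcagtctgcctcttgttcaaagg

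The 10 genes were next compared with each other from mouse to mouse. Of 45 relations between members over the 12 libraries, 4 passed a permutation test of Pearson's r (100000 resamples, adjusted over the 45) and 8 passed one of Spearman's rho. Ereg and Epgn varied together most closely, with r = 0.97 and rho = 0.98 (permutation p = 1e-05 for each, the smallest that the resamples can give, adjusted to 0.000225 and 0.00045). Within CKO r was 0.96 and within WT 0.91 (exact permutation p = 0.00139 and 0.0167, n = 6 each), and without WT-1 and WT-2, the libraries farthest from the median of Ereg, r was 0.97. Erbb2 and Erbb3 also varied together, with r = 0.93 and rho = 0.92 (permutation p = 1e-05 and 7e-05, adjusted to 0.000225 and 0.00157), r = 0.94 within CKO and 0.93 within WT (exact permutation p = 0.00694 and 0.025, n = 6 each), and r = 0.88 without WT-1 and CKO-4.

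Egfr went with the epiregulin pattern rather than with its partner receptors. Ereg and Egfr had r = 0.88 and rho = 0.89 (permutation p = 7e-05 and 0.00024, adjusted to 0.00105 and 0.0027), with r = 0.90 within CKO and 0.63 within WT (exact permutation p = 0.0208 and 0.154, n = 6 each) and r = 0.96 without WT-1 and WT-2. Epgn and Egfr had r = 0.82 and rho = 0.90 (permutation p = 0.0012 and 0.00024, adjusted to 0.0135 and 0.0027), but r = 0.77 within CKO and 0.43 within WT (exact permutation p = 0.0903 and 0.39, n = 6 each), and r = 0.92 without WT-1 and WT-2. Erbb2 and Erbb3 had negative r with Ereg, Epgn, Egfr, Areg and Hbegf, none of which passed by r after adjustment. By rho 3 of these passed, all with Erbb2. For Ereg r was -0.62 and rho -0.78 (permutation p = 0.03 and 0.00375, adjusted to 0.0915 and 0.0337), with r = -0.78 within CKO, -0.60 within WT and -0.70 without WT-1 and WT-2. For Egfr r was -0.62 and rho -0.77 (permutation p = 0.0305 and 0.00474, adjusted to 0.0915 and 0.0355), with r = -0.79 within CKO, -0.63 within WT and -0.47 without CKO-5 and WT-3. For Epgn r was -0.59 and rho -0.76 (permutation p = 0.0412 and 0.00635, adjusted to 0.106 and 0.0408), with r = -0.60 within CKO, -0.69 within WT and -0.60 without WT-1 and WT-2. Areg and Errfi1 had r = 0.72 and rho = 0.74 (permutation p = 0.00877 and 0.00812, adjusted to 0.0682 and 0.0457), with r = 0.86 within CKO and 0.63 within WT (exact permutation p = 0.0431 and 0.175, n = 6 each) and 0.80 without CKO-4 and CKO-6.

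**Figure D5:**
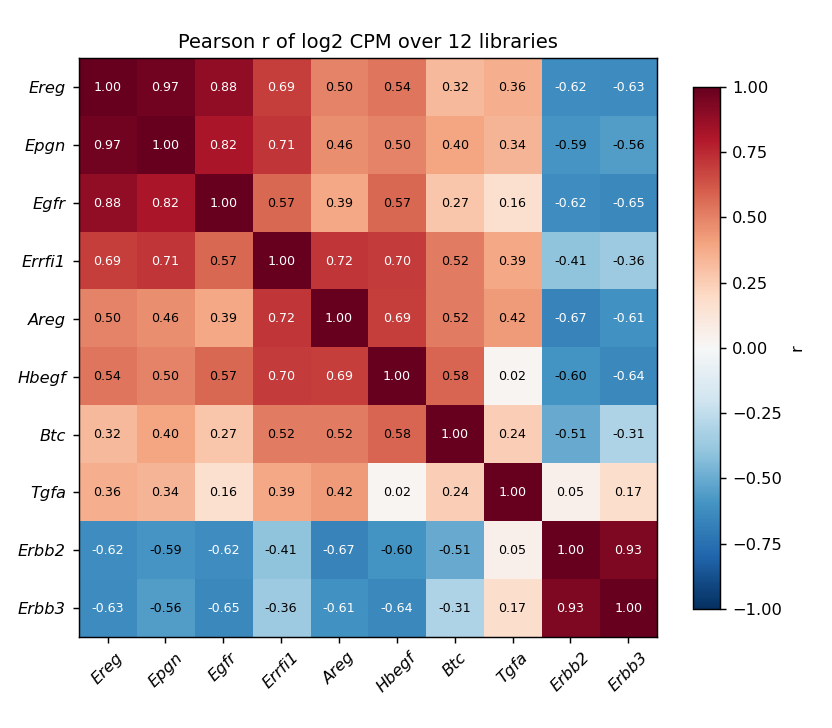
Pearson's r of log2 CPM between each combination of the 10 genes over the 12 libraries, on a scale of -1 to 1. Ereg, Epgn and Egfr form the positive corner at the upper left (r of 0.82 to 0.97) and Erbb2 and Erbb3 the one at the lower right (0.93).

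For the 3 members with the smallest p, the genes most like them over the 12 libraries were found by Pearson's r among 13896 genes, as a description. For Ereg these were Stc1 (r = 0.98), the hormone stanniocalcin, Ptgs2 (0.97), the inducible cyclooxygenase of prostaglandin synthesis, and Il11 (0.97), a cytokine of the interleukin 6 family. For Epgn they were Ptgs2 (0.96), Rdh10 (0.96), a retinol dehydrogenase, and Fgf7 (0.95), keratinocyte growth factor. For Egfr they were Septin11 (0.97), a septin of the cytoskeleton, Hcar2 (0.93), a receptor for butyrate and ketone bodies, and Sema7a (0.93), a membrane-linked semaphorin. Within a genotype r was 0.896 to 0.975 for the genes of Ereg and Epgn. Those of Egfr had 0.92 within CKO and 0.92 within WT (Septin11), 0.67 and 0.94 (Hcar2), and 0.79 and 0.82 (Sema7a). Ptgs2 had a log2 fold change of 2.11 ± 0.59 (SE), Il11 of 1.99 ± 0.52 and Stc1 of 1.53 ± 0.34, with edgeR adjusted p of 0.0685, 0.0615 and 0.0531. These genes were picked by r over both genotypes, so their fold changes and p were in part set by that choice.

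Of 6 other ligands and receptors of the family, Nrg1, Egf and Nrg3 were tested, while Nrg2, Nrg4 and Erbb4 were too low. Nrg1 encodes neuregulin 1, a ligand of ERBB3 and ERBB4. Its level was 56.6 to 141.8 CPM in CKO and 13.6 to 49.9 CPM in WT, so that every CKO library lay above every WT library, as was the case for 0.882% of all tested genes and for 0 of the 10 members. The edgeR adjusted p was 0.0512 for a log2 fold change of 1.76 ± 0.33 (SE), against a DESeq2 adjusted p of 3.56e-05. Its mean of 59.3 ± 18.9 TPM in CKO and 15.9 ± 8.82 TPM in WT (SD, n = 6 each) lay between those of Ereg and Egfr in CKO and just under that of Egfr in WT. Egf itself was scarce, at 1.04 ± 0.43 TPM in CKO and 1.60 ± 0.52 TPM in WT, and its log2 fold change was -0.71 ± 0.30 (SE; edgeR adjusted p = 0.181).

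Of 8 measured genes that release or traffic the ligands, 8 had a log2 fold change above 0 and 5 were higher at an unadjusted edgeR p under 0.05. Over all tested genes these shares were 45.1% and 13.1%. Adam12, a metalloprotease that can release Hbegf, had 4.80 ± 2.93 TPM in CKO and 2.40 ± 1.47 TPM in WT (SD, n = 6 each; log2 fold change 1.12 ± 0.35, SE). Rhbdf2, the inactive rhomboid that carries the sheddase ADAM17 to the cell surface, had 16.8 ± 3.65 TPM in CKO and 12.1 ± 2.0 TPM in WT (0.41 ± 0.13, SE). Adam10 and the cargo protein Tmed10 were the most abundant of the list and had log2 fold changes of 0.12 ± 0.11 and 0.03 ± 0.07 (SE). In edgeR none of the 8 passed after adjustment, and DESeq2 called 2 of them higher, with 7.98% of all genes called higher.

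The 23 signal transducers split evenly, with 11 above 0 and a median log2 fold change of -0.01, and 0 had an unadjusted edgeR p under 0.05. Shc1, an adaptor of the receptor, had 0.18 ± 0.10 and Pik3r1, a regulatory subunit of PI3K, -0.22 ± 0.11 (SE). The abundant kinases Mapk3 and Akt1 had -0.12 ± 0.11 and -0.02 ± 0.08. Of 17 attenuators, 12 were above 0, 5 were higher and 1 was lower at an unadjusted edgeR p under 0.05. Over all tested genes these shares were 45.1%, 13.1% and 9.48%. Spry1, a feedback inhibitor of Ras-ERK signalling, had 0.57 ± 0.20 (SE) and Cblb, a ubiquitin ligase of activated receptors, 0.23 ± 0.09. Cblc and Dusp6, an ERK phosphatase, were the most abundant of that list, with -0.0015 ± 0.10 and 0.34 ± 0.17.

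Of 15 ERK target genes, 10 were above 0, with a median log2 fold change of 0.23, and 5 were higher and 1 lower at an unadjusted edgeR p under 0.05. Among all tested genes 45.1% were above 0, 13.1% higher and 9.48% lower by the same measures. Ier3, an immediate early gene, averaged 78.0 ± 29.9 TPM in CKO and 29.9 ± 6.68 TPM in WT (SD, n = 6 each; log2 fold change 1.34 ± 0.26, SE). Plaur, the urokinase receptor, averaged 87.7 ± 32.7 TPM in CKO and 36.8 ± 14.7 TPM in WT (1.21 ± 0.29, SE). Their edgeR adjusted p were 0.0512 and 0.0565. The abundant transcription factors Junb and Klf6 had 0.45 ± 0.15 and 0.18 ± 0.20. The lower gene was Etv5, with -0.39 ± 0.11 (SE), and Etv4, Fos, Myc and Ccnd1 were also below 0. Genes of this list answer to many signals besides the EGF receptor. DESeq2 called 4 of the list higher and 1 lower, with 7.98% and 3.1% of all genes called in these directions, and edgeR called 0.

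Marker lists of other cell types were read beside these differences, and edgeR called 0 of their genes after adjustment. Among all tested genes 45.1% were above 0, and 13.1% were higher and 9.48% lower at an unadjusted edgeR p under 0.05. DESeq2 called 7.98% of all genes higher and 3.1% lower. The 8 fibroblast markers were all above 0, 7 of them at an unadjusted edgeR p under 0.05 (median log2 fold change 0.73), and summed to 4206 to 10044 CPM in CKO and 2583 to 5190 CPM in WT. The 10 neutrophil markers were all above 0, 8 of them at such a p (median 1.97), and summed to 274 to 1420.5 CPM in CKO and 134 to 601 CPM in WT. The 10 monocyte and macrophage markers, all above 0 and 7 at such a p (median 0.53), summed to 1191 to 2567 CPM in CKO and 791 to 1415 CPM in WT. Of the 10 epithelial markers 1 was above 0 and 5 were lower at such a p (median -0.17), with sums of 10710 to 12890 CPM in CKO and 11316 to 15963 CPM in WT. Enteric neuron and glia markers were above 0 for 8 of 9, 6 of them at such a p (median 0.73), and summed to 156 to 343 CPM in CKO and 83.3 to 166 CPM in WT. The 6 endothelial markers were all above 0, 4 of them at such a p (median 0.64), and summed to 314 to 634 CPM in CKO and 218 to 333 CPM in WT. Of the 10 T cell and innate lymphoid markers 5 were above 0 (median -0.02), yet the sum was 201 to 394 CPM in CKO and 107 to 170 CPM in WT, largely through Il1rl1, the IL-33 receptor (191 ± 72.7 CPM in CKO and 49.4 ± 30.6 CPM in WT, SD, n = 6 each). The 8 smooth muscle markers were all below 0, 4 of them at such a p (median -0.46), with sums of 1848 to 2994 CPM in CKO and 1898 to 4372 CPM in WT. Mast cell sums were 42.7 to 72.5 CPM in CKO and 52.2 to 78.6 CPM in WT, largely through Kit (47.9 ± 11.6 CPM in CKO and 54.0 ± 7.65 CPM in WT, SD, n = 6 each). Of the 5 mast cell markers tested 3 were above 0 and 2 below, Kit among the latter, and 0 had an unadjusted edgeR p under 0.05. Of the markers of these lists, Ngp of the neutrophil list and 3 low mast cell genes had no count in at least 1 library, and none was at 0 in all 12. DESeq2 called higher in CKO 7 fibroblast, 6 monocyte and macrophage, 4 neutrophil, 4 endothelial, 4 enteric neuron and glia and 2 T cell and innate lymphoid markers, and lower 2 smooth muscle and 1 epithelial marker. Fewer cells of a type and less RNA per cell cannot be told apart in such libraries.

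Over the 12 libraries the Ereg level went with 6 of 11 marker sums, after adjustment over the 110 relations of members with lists. These were enteric neurons and glia (r = 0.89), T cells and innate lymphoid cells (0.85), fibroblasts (0.83), endothelium (0.81), neutrophils (0.76) and monocytes and macrophages (0.75). The T cell and innate lymphoid sum was largely Il1rl1, and 5 of the 10 markers of that list had a log2 fold change above 0. Over these 6 marker sums, rho was 0.80 to 0.88, the permutation p of r 0.00031 to 0.00438 (adjusted 0.0154 to 0.0371) and that of rho 0.00031 to 0.00218 (adjusted 0.0088 to 0.0183). Within CKO r was 0.17 to 0.58 (exact permutation p of 0.228 to 0.738, n = 6) and within WT 0.82 to 0.97 (exact permutation p of 0.0153 to 0.0431, n = 6). Without WT-1 and WT-2 r was 0.69 to 0.85. With smooth muscle r was -0.70 (permutation p = 0.0104, adjusted to 0.067) and with epithelium -0.66 (permutation p = 0.0169, adjusted to 0.0829), and neither passed. The pattern was not particular to Ereg. Of the 110 relations 16 passed by r, and those not of Ereg were of Epgn and Egfr with the same lists. Of these lists Epgn missed monocytes and macrophages (permutation p adjusted to 0.0706) and Egfr missed neutrophils (0.0914).

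Stratified squamous epithelium is a known source of Epgn and Ereg in skin, and 3 of its 13 markers were high enough to test. Sprr1a, a cornified envelope gene, made up most of the summed level of the list, at 26.2 to 72.1 CPM in CKO and 18.9 to 39.4 CPM in WT. Every keratin and Trp63 of that list averaged under 1 CPM in both genotypes, and Sprr1b was at 0 in all libraries. The part of these cell types in the differences of Ereg, Epgn and Egfr was not tested.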

How the data were processed

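RNA-seq of colon from 12 mice was used, 6 CKO and 6 WT, grouped and numbered by the labels. Per the labels, Trizol was used for total RNA and a SMARTER mRNA-Seq kit for the libraries. The authors deposited 1 table that holds, per the file headers, raw read counts and TPM for each gene and library. The authors also deposited log2 fold changes, p-values and adjusted p-values, for which no test is named. The submitters' processing notes name GRCm38, mm10 and mm39 as builds and give no role for any. No source used here names the aligner, the counter or the use of strand, so genes that overlap others are uncertain. The table has 0 columns of samples outside the series.

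Counts were fitted in R 4.3.3 with edgeR 4.0.16 (filterByExpr, minimum count 10 and minimum total 15, TMM scaling, glmQLFit and glmQLFTest without robust estimation, no covariate), CKO minus WT, with Benjamini-Hochberg adjustment over 14393 genes and a threshold of 0.05. CPM are TMM-scaled, log2 CPM used a prior count of 2, and 95% intervals are the log2 fold change ± a normal multiple of its SE. With so few libraries a normal multiple is somewhat too small, so these intervals are slightly too narrow beside the edgeR p-values. Single genes were compared by an exact two-sided permutation test over all arrangements of 6 against 6, unadjusted. DESeq2 1.42.0, limma 3.58.1 (voom, and limma-trend on log2(TPM + 1)), other scalings and filters, and each library left out were alternatives. Procedures were tested on simulated data. Totals were 15348192 to 19138507 counts per library, which bounds the precision of low genes such as Epgn.

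The genes and lists were chosen with earlier results of these data known. From each list the 2 genes with the smallest p and the 2 with the highest mean TPM are named, and for 3 members the 3 most similar genes with a mean CPM of at least 1. The ERK target genes below 0 are named as well. Of 180 list genes 179 were in the table, and the other, of the shedding list, was not analysed here. The symbol Nrg1 stands on 2 IDs, and the ID with counts was used. The 2 closest libraries of a group differed by far more than counting noise (chi-square per gene 19.6). The labels name the mice as separate animals by number only, so p-values measure the spread between these samples.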

Additional observations from a re-analysis of the deposited data

Results flagged for a closer look

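In CKO, Tgfa was 55.9 CPM in CKO-3, far above the other 5 libraries of its group. Erbb2 was 188 CPM in CKO-4, likewise apart from the other 5 CKO libraries, which lay close together. Among the summed marker levels, CKO-1 stood apart in the stratified squamous sum (74.7 CPM, of which Sprr1a was 72.1 CPM) and CKO-2 in fibroblast markers (10044 CPM), each above the other CKO libraries. WT-4 stood apart in neutrophil markers (601 CPM) and WT-6 in exocrine pancreas markers (24004 CPM), each above the other WT libraries. Of 52 groups of 6 values examined, these were the ones in which the gap to the nearest library exceeded Dixon's critical value. For independent, normally distributed values chance alone does this in about 1 in 20 groups. CPM need not be so distributed, and the groups share libraries, so that rate is only a rough guide here.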

How the results depend on the processing

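Over 22 alternatives the log2 fold change ranged from 1.61 to 2.35 for Ereg, 1.07 to 1.95 for Epgn and 0.31 to 0.44 for Egfr. That of Tgfa ranged from -0.0045 to 0.14, and lay below 0 without CKO-3, its highest library. The other members kept their sign. edgeR called 8 of all tested genes with all libraries. The count was 52 with DESeq2's size factors, 275 with library size only, 49 with limma voom, 53 with robust estimation, 403 with limma-trend on TPM and 1532 with the DESeq2 test (1103 higher, 429 lower). It ranged from 2 to 1272 without each library in turn, with 1272 without CKO-4, 1007 without WT-4 and 373 without WT-6, and was 1911 without both libraries numbered 4. Members called were 0 in the main test, 3 by DESeq2, 2 by limma-trend on TPM (Ereg and Epgn), 0 to 3 without each library in turn and 3 without both libraries numbered 4 (Ereg, Epgn and Egfr wherever 3). The cause was not tested. Same-numbered CKO and WT libraries had correlations of -0.496 to 0.078 and 0 of 6 matched its own number best. Whether the numbers pair the mice is not stated in the labels. These correlations cannot decide it, as differences between single mice could outweigh a pairing. With the replicate block edgeR called 1 gene and 0 members. The exact permutation test gave p under 0.05 for the same 4 members on CPM and TPM. Depth limits Epgn most.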
